A study of Homo sapiens with 2 samples.

Results

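miR-28, miR-151a and miR-708 are microRNAs (miRNAs) whose hairpins are commonly described as derived from LINE-2 elements, an old family of transposable repeats. The 6 members are both mature arms, 5p and 3p, of each of the 3 hairpins, chosen by name and type from a table of small RNA counts. All 6 are listed, among 859 mature miRNAs and 5475 small RNA features in all. The table was obtained from A549, an established human lung adenocarcinoma cell line, grown in DMEM with serum. Cells were incubated for 24 h either in normoxia, at 20% oxygen, or in hypoxia, at 1.2% oxygen. With a single library of each kind (n = 1), differences between normoxia and hypoxia could not be tested against replicates, and p-values are not given. Intervals are exact 95% intervals. They cover counting error only and take each read as independent. PCR reads without molecular identifiers are not independent molecules, so the intervals may be too narrow.

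A LINE-2 copy next to an inverted copy can be transcribed into an RNA that folds back on itself, and such a fold can be cut into a miRNA duplex. One arm of the duplex is usually retained by Argonaute, and bases 2 to 8 from its 5′-end, the seed, pair with target mRNAs. Hairpins of common origin may therefore give mature arms with related seeds, or with seeds shifted by a base. Each of these 3 hairpins is embedded in a protein-coding gene: MIR28 in LPP, which encodes a protein of focal adhesions and cell contacts, MIR151A in PTK2, which encodes focal adhesion kinase, and MIR708 in TENM4, which encodes a teneurin of the cell surface.

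The mature sequences of the 3 members found in RefSeq for GRCh38.p14 are shown, since the 3p arms show a seed shifted by a base and miR-708-5p carries the seed that is shared with miR-28-5p. Capitals mark the seed.
miR-28-3p: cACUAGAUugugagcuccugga
miR-708-3p: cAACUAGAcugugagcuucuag
miR-708-5p: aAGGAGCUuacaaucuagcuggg
Among the 850 listed mature miRNAs with a usable sequence, the seed AGGAGCU of miR-708-5p was found at the same place in miR-28-5p only. On the 5p side these arms therefore belong to 1 seed group. The run was also present, starting at another base, in miR-151a-5p, miR-151b, miR-339-5p and miR-4421. With miR-28-5p and miR-708-5p these are 6 of the 850 (0.706%), searched on the mature strand. Over their full length, miR-28-5p and miR-708-5p differed by an edit distance (substitutions, insertions and deletions) of 5 over 22 and 23 bases.

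The 3p arms shared sequence but not a seed. Counted from the 5′-end, the run ACUAGA started at base 2 of miR-28-3p and at base 3 of miR-708-3p, a shift of 1 base between otherwise similar arms, with an edit distance of 5 over 22 bases each. It was found in 4 of the 850 sequences (0.471%), and at base 2 in miR-28-3p only. miR-151a-3p was farther, with an edit distance of 8 from miR-28-3p and 9 from miR-708-3p. No other listed miRNA had the seed of any of the 3p arms.

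miR-151a-5p had its own seed, shared in the table with miR-151b only. It had an unbroken run of 16 bases in common with miR-28-5p, although the seeds differed. The 18 bases of miR-151b, annotated on chromosome 14, were contained whole in the 21 bases of miR-151a-5p. Reads short of the end of miR-151a-5p cannot be told apart from miR-151b, and the counts of both are uncertain as separate measurements.

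In GRCh38, the plus strand of chromosome 3 holds MIR28 (188688781 to 188688866), the minus strand of chromosome 8 holds MIR151A (140732564 to 140732653), and the minus strand of chromosome 11 holds MIR708 (79402022 to 79402109). Each is annotated on the strand of its host gene and overlapped 0 annotated exons of it, so all 3 are intronic in the annotation used. The table itself gives hg19 positions with 1 base added at each end. Without that base, miR-28-5p lies at chr3:188406582-188406603, miR-28-3p at chr3:188406622-188406643, miR-708-5p at chr11:79113121-79113143 and miR-708-3p at chr11:79113076-79113097.

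The normoxia library had 6449337 counts, of which 4514818 were on mature miRNAs, and the hypoxia library had 13115226, of which 8600160 were on mature miRNAs. Levels are given as CPM, counts scaled so that all mature miRNAs of a library sum to 1000000. miR-21-5p alone made up 72.2% of this sum under normoxia and 68.4% under hypoxia. The epithelial miRNAs of the miR-200 family and miR-205 were all listed, 6 of 6, with a summed level of 1168 and 1362 CPM. miR-200b-3p gave 880 and 1085 CPM of that sum, while miR-141-3p (37.2 and 25.5 CPM), miR-429 (91.5 and 87.4 CPM) and miR-205-5p (2.66 and 1.74 CPM) were at lower levels in hypoxia. Of 14 miRNAs of liver, neurons, muscle, blood, endothelium and mesenchyme, 10 were listed, with a summed level of 329 and 335 CPM. miR-126-3p, an endothelial marker, gave 179 and 190 CPM of that sum, and miR-451a, of blood, gave 18.2 and 22.2 CPM. The mesenchymal miR-143-3p (104 and 96.2 CPM) and miR-145-5p (24.6 and 22.1 CPM) were at lower levels in hypoxia. Each of the other listed ones was at or below 2.09 CPM in both libraries. miR-1, miR-206, miR-223-3p and miR-144-3p were not listed. The part of other cells in the values below was not tested. miR-210, a well-known target of the hypoxia-inducible factors, was at 954 CPM in normoxia and 2657 CPM in hypoxia, with a log2 ratio of 1.48 (interval 1.43 to 1.52).

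Together, the 6 arms had 20507 counts in normoxia and 51618 in hypoxia. Their share of mature counts was 0.454% (0.448% to 0.460%) in normoxia and 0.600% (0.595% to 0.605%) in hypoxia. miR-151a gave 74.6% of the counts of the group in normoxia and 81.3% in hypoxia, miR-28 gave 25.4% and 18.6%, and miR-708 gave 0.0488% and 0.00969%. The level of the group was thus set by miR-151a and miR-28, while miR-708 was near the limit of detection.

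miR-151a-5p (listed as hsa-miR-151a-5p, MIMAT0004697), which has been linked to migration of tumor cells together with its host PTK2, was the most abundant member. It had 10520 counts in normoxia, or 2330 CPM (2286 to 2375), and 32136 counts in hypoxia, or 3737 CPM (3696 to 3778). Its rank among mature miRNAs was 33 in normoxia and 21 in hypoxia. miR-151a-3p (hsa-miR-151a-3p, MIMAT0000757), the opposite arm, was at 1057 CPM (1028 to 1088) from 4774 counts in normoxia and at 1146 CPM (1123 to 1169) from 9855 counts in hypoxia. The 5p arm was above the 3p arm in both libraries, by 2.20 times (2.13 to 2.28) and 3.26 times (3.19 to 3.34).

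miR-28-5p (hsa-miR-28-5p, MIMAT0000085), known for its loss in B-cell lymphomas, had 4451 counts in normoxia, or 986 CPM (957 to 1015), and 8116 counts in hypoxia, or 944 CPM (923 to 964). miR-28-3p (hsa-miR-28-3p, MIMAT0004502) was at 167 CPM (155 to 179) from 752 counts in normoxia and at 175 CPM (166 to 184) from 1506 counts in hypoxia. miR-28-5p and miR-151a-3p lay close together, at ranks 60 and 55 in normoxia and 65 and 58 in hypoxia. miR-28-3p lay far below them, at ranks 120 and 119. With 1 library per condition, whether such neighbours in the order differ beyond the spread between cultures cannot be told.

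miR-708, described as a suppressor of metastasis and as a miRNA induced with its host in stress of the endoplasmic reticulum, was hardly detected. miR-708-5p (hsa-miR-708-5p, MIMAT0004926) had 6 counts in normoxia, or 1.33 CPM (0.488 to 2.89), and 4 in hypoxia, or 0.465 CPM (0.127 to 1.19). miR-708-3p (hsa-miR-708-3p, MIMAT0004927) had 4 counts in normoxia, or 0.886 CPM (0.241 to 2.27), and 1 in hypoxia, or 0.116 CPM (0.00294 to 0.648). miR-28-5p, with the same seed, had 742 times (341 to 2023) as many counts as miR-708-5p in normoxia and 2029 times (792 to 7449) in hypoxia. In these libraries the annotated arms with the AGGAGCU seed, at 987 and 944 CPM together, were hence almost entirely miR-28-5p. Counts are given for each annotated arm, so the 5′-ends of single reads, and with them their seeds, were not measured.

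**Figure D1:**
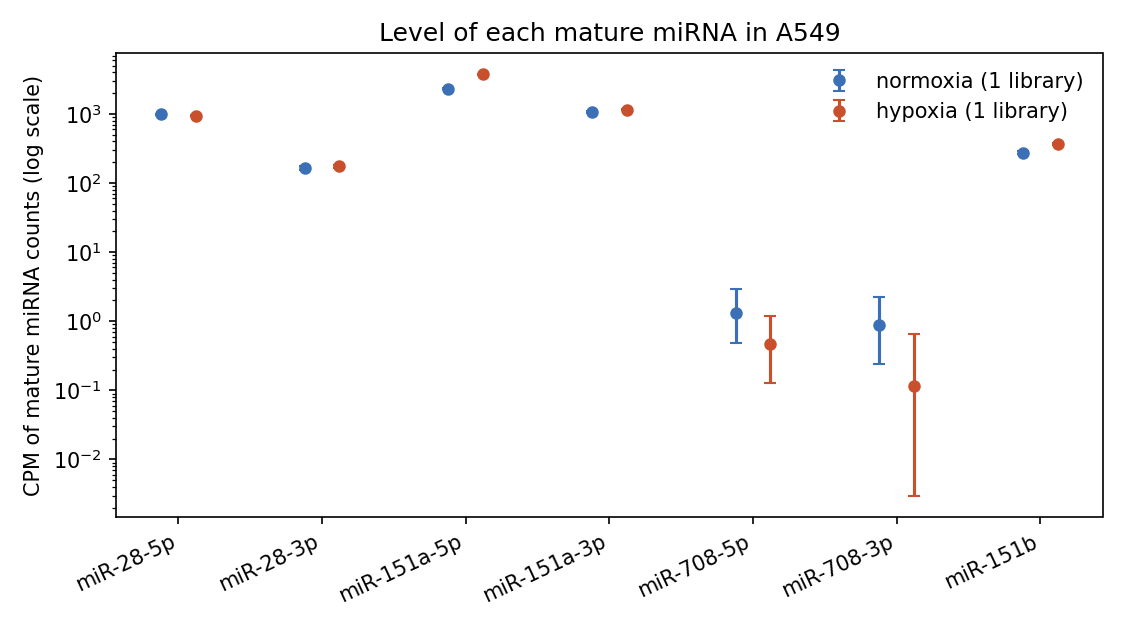
Level of the 6 members and of miR-151b in the normoxia and hypoxia libraries, as CPM of mature miRNA counts on a log axis, with exact 95% counting intervals as bars. The arms of miR-151a and miR-28 lie between 167 and 3737 CPM, and both arms of miR-708 lie at or below 1.33 CPM.

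The mature miRNA nearest in level to each member, by Euclidean distance of log2 CPM over both libraries, was miR-30b-5p for miR-151a-5p (2350 and 3575 CPM, distance 0.065), miR-138-5p for miR-151a-3p (1059 and 1184 CPM, 0.047), miR-99a-5p for miR-28-5p (1007 and 1001 CPM, 0.091) and miR-126-3p for miR-28-3p (distance 0.16). At the depth of miR-708, identical counts were shared with other miRNAs, with miR-556-5p for the 5p arm, and no likeness can be read from them. Over 2 libraries, this likeness is a description of level.

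To compare oxygen conditions, the CPM in hypoxia was divided by that in normoxia and the quotient put on a log2 scale. Of the 4 arms with a mean log2 CPM above 3, none passed the rule of size used here, an absolute log2 ratio of at least 0.9. By that rule, 12 of 339 miRNAs past the filter were higher in hypoxia (3.54%) and 11 were lower (3.24%). The median log2 ratio of the 339 was 0.079, with quartiles of -0.22 and 0.39.

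miR-151a-5p had the highest ratio of the members, with a log2 ratio of 0.68 (0.65 to 0.71), that is 1.60 times its level in normoxia (1.57 to 1.64). This is 0.60 above the median of the 339 miRNAs. It ranked at 26 of 339 by its log2 ratio, and 46 of the 339 (13.6%) had an absolute log2 ratio as large. miR-151a-5p was higher in hypoxia under each scaling tried, with log2 ratios from 0.49 to 0.68.

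The other abundant arms had smaller ratios. miR-151a-3p had a log2 ratio of 0.12 (0.066 to 0.17), 0.037 above the median of the 339, and it turned to -0.080 when the most abundant miRNAs were removed from the totals. miR-28-5p had a log2 ratio of -0.063 (-0.12 to -0.010), and the other scalings, each of which lowers every ratio, gave values down to -0.26. miR-28-3p had a log2 ratio of 0.072 (-0.055 to 0.20), which was -0.042 after scaling by the TMM method (trimmed mean of M values), -0.022 with all counts of the table as the denominator and -0.12 without the most abundant miRNAs. Counting intervals that exclude 0, as for miR-151a-5p, miR-151a-3p and miR-28-5p, were found for 214 of the 339 miRNAs (63.1%), and so they do not set these arms apart.

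**Figure D2:**
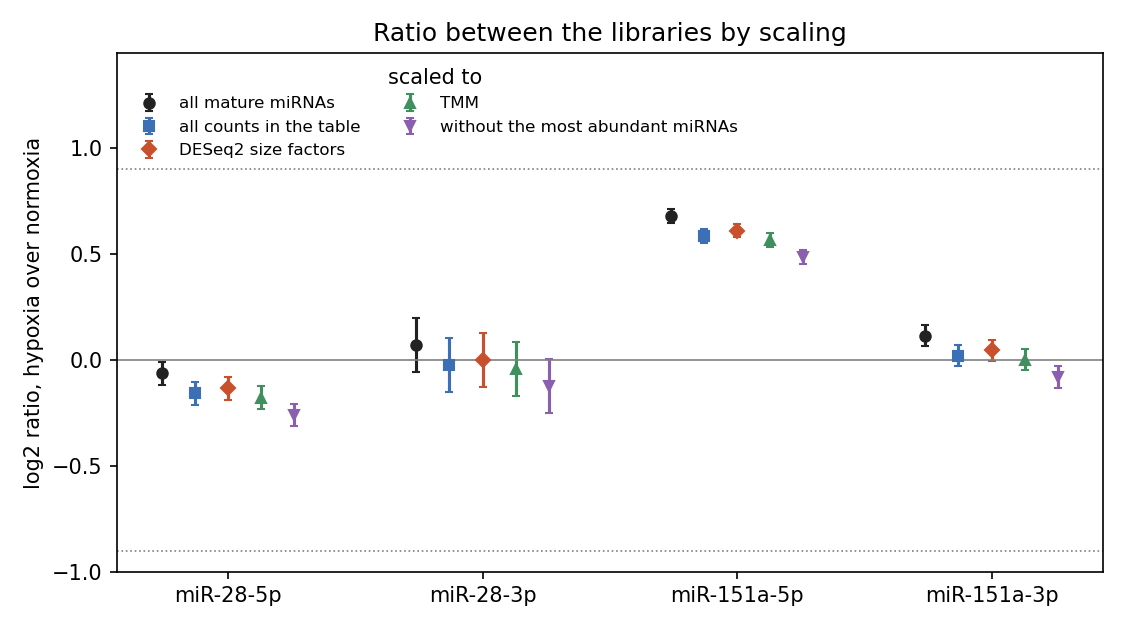
Log2 ratio of hypoxia over normoxia for the 4 abundant arms (1 library per condition), under 5 scalings, with exact 95% counting intervals as bars and dotted lines at 0.9 and -0.9. miR-151a-5p lies between 0.49 and 0.68 and miR-28-5p between -0.26 and -0.063, while both 3p arms lie on either side of 0, from 0.12 to -0.080 for miR-151a-3p and from 0.072 to -0.12 for miR-28-3p.

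Both arms of miR-708 had lower CPM in hypoxia, with log2 ratios of -1.51 (-3.78 to 0.56) for miR-708-5p and -2.93 (-8.55 to 0.41) for miR-708-3p. Each interval includes 0. Summed, the arms of miR-708 gave 10 counts under normoxia against 5 under hypoxia, for a log2 ratio of -1.93 (-3.83 to -0.25). Neither arm passed the filter on low values, and their sum, at a mean log2 CPM of 0.58, lies below it too. The interval of the sum excludes 0, but it rests on these few counts and covers counting error only. A difference of either arm was not detectable at this depth.

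Over the 6 arms, the summed log2 ratio was 0.40 (0.38 to 0.43), and from 0.21 to 0.33 under the other scalings. Without miR-151a-5p, an alternative chosen after the values were seen, the remaining 5 arms had a log2 ratio of 0.034 (-0.00055 to 0.069), at 2212 CPM in normoxia and 2265 CPM in hypoxia. The other scalings shift every ratio by -0.070 to -0.20, and so turn this value negative. The higher sum in hypoxia rested on miR-151a-5p, whose part of the group went from 51.3% (50.6% to 52.0%) to 62.3% (61.8% to 62.7%). Within a library, which requires no scaling, miR-151a-5p had 2.36 times (2.28 to 2.45) the counts of miR-28-5p in normoxia and 3.96 times (3.86 to 4.06) in hypoxia. The same quotient between the 3p arms was 6.35 (5.88 to 6.86) and 6.54 (6.20 to 6.91), with overlapping intervals. Thus the proportion between the 5p arms differed between the libraries beyond counting error, and that between the 3p arms did not.

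The balance between the arms of a hairpin also needs no scaling. The 5p arm of miR-28 took 85.5% (84.6% to 86.5%) of the counts of both arms in normoxia and 84.3% (83.6% to 85.1%) in hypoxia. The 5p arm of miR-151a took 68.8% (68.0% to 69.5%) of 15294 counts in normoxia and 76.5% (76.1% to 76.9%) of 41991 in hypoxia, a gain of 7.75 percentage points. For miR-708, the 5p arm had 6 of 10 counts in normoxia (60%, 26.2% to 87.8%) and 4 of 5 in hypoxia (80%, 28.4% to 99.5%), intervals too wide to show any difference. The 5p arm thus had the most counts in both libraries for miR-28 and miR-151a, as in 44 of 71 other hairpins with both arms past the filter, while the intervals of miR-708 include 50%.

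**Figure D3:**
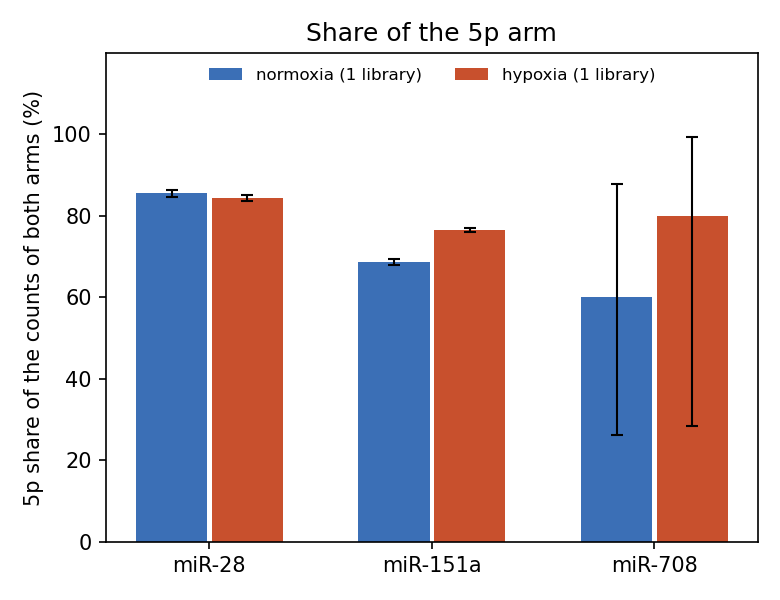
Share of the 5p arm in the counts of both arms, in percent, for each hairpin in the normoxia and hypoxia libraries, with exact 95% counting intervals as bars. The share of miR-151a is 68.8% in normoxia and 76.5% in hypoxia, that of miR-28 is 85.5% and 84.3%, and the bars of miR-708, with 10 and 5 counts, overlap widely.

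The log2 ratio of the 5p arm less that of the 3p arm was 0.57 (0.51 to 0.62) for miR-151a, -0.14 (-0.27 to 0.0029) for miR-28 and 1.42 (-2.70 to 7.35) for miR-708. In the 71 other hairpins, paired by name, the median absolute difference between arms was 0.43, with quartiles of 0.24 and 0.69. The difference of miR-151a was within that range, and 24 of the 71 had one at least as large. The difference of miR-28 was among the smaller ones, with 9 of the 71 below it. In percentage points, the median absolute change of the 5p share was 1.69 in the 71 others, and 10 of them changed by as much as miR-151a in either direction. A change in points depends on the starting share, since a share near either end has little room to move further toward that end. It can still move away from it, as for let-7g, with 95.1% in normoxia and 88.6% in hypoxia. The log2 difference has no such bound, but its counting error is larger where 1 arm has few counts. That error was not taken into account in the count of 24 of 71.

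**Figure D4:**
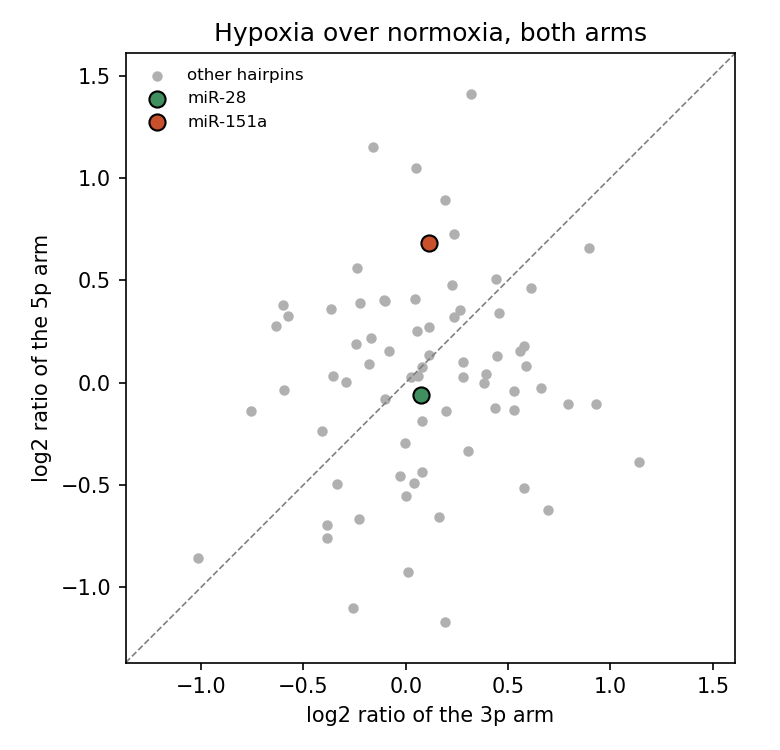
Log2 ratio of hypoxia over normoxia of the 5p arm against that of the 3p arm, for the 73 hairpins with both arms past the filter, scaled to all mature miRNAs. The dashed line marks equal ratios, miR-28 lies near it at 0.072 (3p) and -0.063 (5p), and miR-151a lies above it at 0.12 (3p) and 0.68 (5p), within the cloud of other hairpins (grey).

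miR-151b, the miRNA contained in miR-151a-5p, had 1241 counts in normoxia, or 275 CPM (260 to 291), and 3131 in hypoxia, or 364 CPM (351 to 377). This was 11.8% (11.1% to 12.5%) and 9.74% (9.39% to 10.1%) of the counts of miR-151a-5p. Its log2 ratio was 0.41 (0.31 to 0.50), in the same direction as miR-151a-5p. With miR-151b added to it, miR-151a-5p had a log2 ratio of 0.65, and the 5p share of miR-151a was 71.1% in normoxia and 78.2% in hypoxia.

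Of other miRNAs related to the group, miR-95, which is also described as derived from LINE-2, had 48 counts in normoxia and 56 in hypoxia, or 10.6 CPM (7.84 to 14.1) and 6.51 CPM (4.92 to 8.46). Its log2 ratio was -0.71 (-1.29 to -0.12). miR-325, of the same repeat, and miR-3139 were not listed. The lowest sum of both libraries for any listed feature was 3 counts, and lower sums may therefore be left out of the table.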

How the data were processed

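Small RNA libraries of A549 cells, 1 per condition, were ligated, amplified and sequenced on a SOLiD instrument. The deposited table of the authors holds raw, unscaled counts of reads for each small RNA feature. For SOLiD data the methods name the LifeScope small RNA pipeline with default parameters and miRBase annotation, without naming this experiment, and the submitters' processing notes give hg19. Mature miRNAs of near-identical sequence can share reads.

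From the counts, CPM on all mature miRNAs and log2 ratios without a prior count were computed with Python 3.11.15 and scipy 1.17.1, with exact binomial (Clopper-Pearson) intervals for levels and shares, and exact conditional intervals for ratios. The filter, a mean log2 CPM above 3, used a prior count of 2. Alternative scalings used edgeR 4.0.16 (TMM) and DESeq2 1.42.0 (size factors) in R 4.3.3. The calculation was tested on simulated data. RefSeq held 3 of the 6 members and 687 of 859 mature miRNAs by name, of which 653 equalled the deposited sequence without its outer bases. GENCODE (GRCh38) gave the loci.

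The members, and the lists beside them, were chosen with earlier results of these data known. Named were the members, miRNAs sharing their seed or repeat origin, miR-151b, miR-210, the marker miRNAs and the miRNA nearest in level to each member.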

Additional observations from a re-analysis of the deposited data

Results flagged for a closer look

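Counts on whole hairpins, which enter no comparison above, exceeded 3 counts in each library, the upper limit for a count of 0, and no control was sequenced. The MIR28 hairpin, of 86 bases, had 13 counts in normoxia and 15 in hypoxia. The MIR151A hairpin, of 90 bases, had 6 and 23, and the same interval is listed again as a sense intronic RNA with the same counts, 6 and 23, so these are 1 measurement. The MIR151B hairpin, of 96 bases, had 5 and 15. No hairpin feature of MIR708 is listed.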

How the results depend on the processing

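With TMM scaling, the log2 ratios were -0.18 for miR-28-5p, 0.57 for miR-151a-5p, 0.0015 for miR-151a-3p and 0.29 for the 6 members summed. With DESeq2 size factors they were -0.13, 0.61, 0.046 and 0.33, with all counts of the table as the denominator -0.16, 0.59, 0.022 and 0.31, and with totals from which the 10 most abundant of each library were removed -0.26, 0.49, -0.080 and 0.21, and -0.12 for miR-28-3p. By construction, a scaling shifts every ratio equally, and TMM moved the median of the 339 miRNAs by -0.11. Leaving out miR-151a-5p took the sum to 0.034. Adding miR-151b took the 5p share of miR-151a to 71.1% and 78.2%. Without the most abundant miRNAs, the count of higher miRNAs went from 12 to 5 and that of lower ones from 11 to 19. Of the miRNAs called either way, 20.8% were then higher, in place of 52.2%. Without a filter the counts were 113 and 64, as 859 were then considered. TMM and all counts each gave 8 higher and 15 lower (34.8% of those called were higher), DESeq2 size factors 10 and 15 (40%). A threshold of 1 gave 8 higher and 7 lower. A prior count of 2 and thinning of the deeper library kept each of the abundant arms within its counting interval. No paired analysis was possible because there is only a single library of normoxia and of hypoxia, and none could be left out. Depth limits miR-708, whose log2 ratios ranged from -1.71 to -1.09 (5p) and from -3.13 to -1.50 (3p) over the alternatives.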
